A study of Mus musculus with 13 samples.

Results

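Sall1, Isl1, Eya1, Six2, Sp8, Lhx8, Dlx5 and Dlx6 are transcriptional regulators known from the genital tubercle, the embryonic outgrowth that becomes the penis or clitoris. These 8 genes were looked up by symbol among 45101 probe sets of the Affymetrix MOE430 array, and 12 probe sets carried 1 of their symbols and no other. Each gene was represented by its brightest probe set, by mean log2 intensity over all 13 arrays, and the other probe sets served as a check. Of the 8 genes, 7 reached the detection level and were tested among 15019 genes. Dlx6 did not.

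The arrays profiled regions of the lower urinary tract dissected by the fluorescence of an EGFP reporter for smooth muscle gamma actin (SMGA, Actg2). All regions came from SMGA/EGFP transgenic embryos on the FVB/N strain at embryonic day 14, of unknown sex and not pooled. There were 3 bladder arrays (fluorescent tissue, replicates 2, 6 and 8), 3 urethra arrays (fluorescent tissue, replicates 1, 2 and 6) and 4 urogenital sinus arrays (the dark stretch between them, replicates 1, 2, 6 and 7). The reference was RNA of whole wild-type FVB/N mice at postnatal day 1, pooled from 4 males and 4 females and hybridised to 3 arrays. Region embryos were assigned to Theiler stage 21 or 22. The reporter marks smooth muscle, so the dissection followed that tissue and not the genes described here. No array held tissue labelled as genital tubercle. Nothing in the labels ties each array of a region to an embryo of its own, so the p-values reflect variation among these samples, which may be technical.

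In the genital tubercle, Hedgehog signals from the urethral epithelium and Wnt, Bmp and Fgf signals from neighbouring cells drive outgrowth and closure of the urethra, and homeodomain and zinc finger factors act in the mesenchyme and epithelium that receive them. Sall1 is a zinc finger factor also needed for kidney formation, and its loss of function in humans causes a syndrome with anal, limb and genital defects. Sp8 is a zinc finger factor of the Sp family known from limb and genital surface epithelium. Isl1 and Lhx8 are LIM-homeodomain factors. Eya1 is a coactivator that works bound to homeodomain proteins of the Six2 family. Dlx5 and Dlx6 are homeodomain factors encoded by neighbouring genes of the RefSeq GRCm38.p6 assembly.

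Promoter sequences were available for 5 of the 8 genes from RefSeq, in the GRCm38.p6 build, as the 250 bases before and 50 bases after a transcription start, taken as the most upstream one listed for the gene. Those of Sall1, Isl1, Six2 and Sp8 are shown because these genes were lower in bladder than in both other regions. Capitals mark exact matches, on either strand, to the CCAAT box (CCAAT), the GC box (GGGCGG) or the TATA box (TATAAA). Searched motifs did not overlap each other in these windows. The sequences run 5′ to 3′ along the gene.
Sall1, chr8:89044113-89044412, minus strand: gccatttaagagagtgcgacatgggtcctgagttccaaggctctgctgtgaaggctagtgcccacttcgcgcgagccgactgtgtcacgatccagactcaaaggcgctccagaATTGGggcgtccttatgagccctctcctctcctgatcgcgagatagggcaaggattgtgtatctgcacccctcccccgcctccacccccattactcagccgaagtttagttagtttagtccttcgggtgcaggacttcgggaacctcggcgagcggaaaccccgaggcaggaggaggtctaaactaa
Isl1, chr13:116309639-116309938, minus strand: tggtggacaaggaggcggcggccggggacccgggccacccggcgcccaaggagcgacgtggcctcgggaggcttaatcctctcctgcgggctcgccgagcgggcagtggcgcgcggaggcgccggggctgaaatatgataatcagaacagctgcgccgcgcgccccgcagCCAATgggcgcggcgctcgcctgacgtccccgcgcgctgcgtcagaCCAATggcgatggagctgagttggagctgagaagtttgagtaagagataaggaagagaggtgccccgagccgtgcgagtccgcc
Six2, chr17:85688205-85688504, minus strand: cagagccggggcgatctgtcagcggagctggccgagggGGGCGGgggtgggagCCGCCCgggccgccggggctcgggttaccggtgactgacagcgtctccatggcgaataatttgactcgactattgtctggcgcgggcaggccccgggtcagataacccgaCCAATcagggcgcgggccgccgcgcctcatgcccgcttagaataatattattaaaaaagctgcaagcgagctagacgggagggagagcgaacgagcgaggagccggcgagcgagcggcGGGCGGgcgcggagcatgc
Sp8, chr12:118846079-118846378, plus strand: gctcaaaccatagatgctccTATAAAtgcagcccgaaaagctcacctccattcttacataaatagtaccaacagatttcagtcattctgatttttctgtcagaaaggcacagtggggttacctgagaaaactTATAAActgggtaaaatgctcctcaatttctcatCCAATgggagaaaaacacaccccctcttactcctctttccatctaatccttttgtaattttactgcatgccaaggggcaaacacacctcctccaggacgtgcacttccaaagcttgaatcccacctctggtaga

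The windows differed in composition. G and C made up 69.0% of the Isl1 window, 67.3% of the Six2 window, 57.3% of the Sall1 window and 43.0% of the Sp8 window, against a median of 52.7% over 32851 RefSeq promoters of the same length. A CCAAT match occurred in each of the 4, with 2 in Isl1 at 80 and 34 bases before the start, and 37.4% of all promoters held one. Six2 alone held GC box matches, 3 of them, and 35.7% of all promoters held one. Sp8 alone held TATA box matches, 2 of them, against 13.6% of all promoters. The homeodomain core TAATTA was found in none of the 5 windows and in 5.29% of all promoters. The Lhx8 window held none of the 4 motifs. Sall1 and Sp8 had 3 listed starts each, and only the most upstream one listed is shown. The Sp8 gene itself begins at 118846288 in the same build, inside the printed window and before the start used.

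Levels below are log2 intensities. Values under the 20th percentile of the table were set to it (the floor, an intensity of 50.2 or 5.65 on the log2 scale), and a gene counted as detected on an array above the 40th percentile (an intensity of 168, or 7.39 on the log2 scale). Levels of different probe sets depend on the probes, so no gene was compared with another by level. Differences are first group minus second group, fitted with limma over all tested genes, and a gene was called at a Benjamini-Hochberg adjusted p under 0.05. In bulk tissue, fewer cells of a type and less RNA per cell cannot be told apart.

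In bladder, 5 of the 7 tested genes were lower than in urogenital sinus (Sall1, Isl1, Eya1, Six2 and Sp8) and 6 were lower than in urethra (the same 5 and Lhx8). None was higher. Of all genes tested, 2.54% were called between bladder and urogenital sinus, 1.73% as lower, and 4.33% were called between bladder and urethra, 2.62% as lower. The members, and the gene lists below, were chosen with earlier results of these data known, so these shares describe them and test nothing. The members' median difference was -3.07 against urogenital sinus and -3.69 against urethra, while the medians of all genes were -0.19 and -0.25. Bladder arrays lay under all arrays of the other region for 5 of the 7 against urogenital sinus (10.6% of all genes) and for 6 against urethra (22.6%). Both comparisons use the same 3 bladder arrays. Centring each array on its median moved the median of all genes to 0.40 in bladder minus urogenital sinus and turned the calls from 122 higher and 260 lower to 217 higher and 88 lower. It left Sall1, Isl1 and Sp8 called as lower against urogenital sinus, and Sall1, Isl1, Six2, Sp8 and Lhx8 against urethra.

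**Figure D1:**
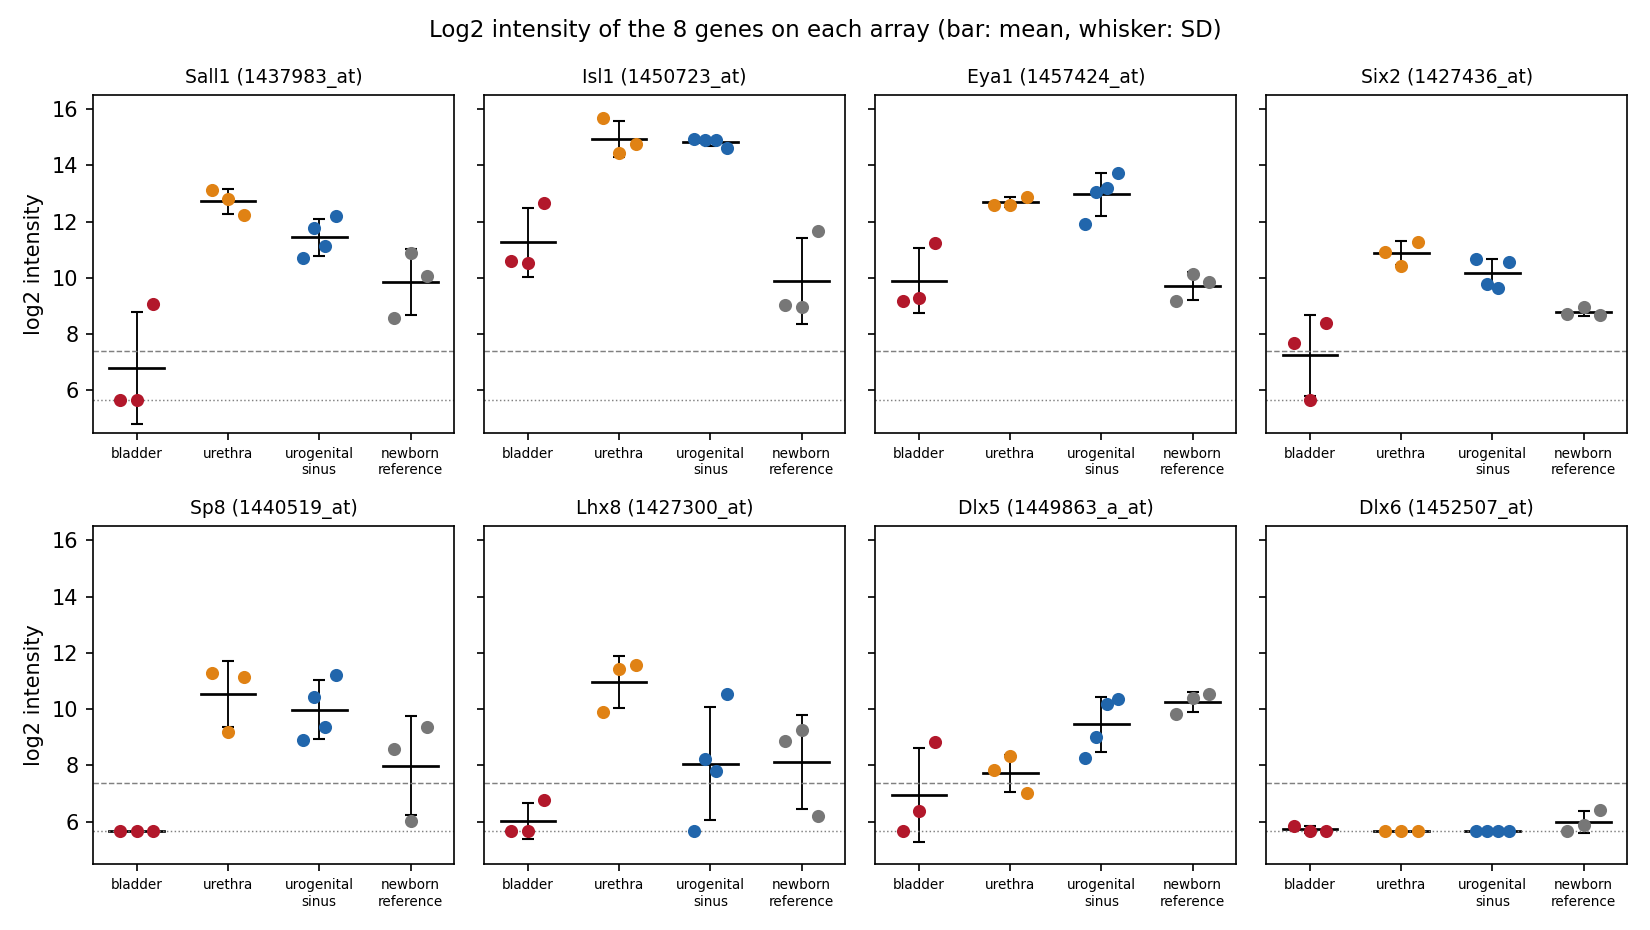
Log2 intensity (y axis) of each gene's brightest probe set on every array, by group (x axis), with the group mean as a bar and the SD as a whisker. The dotted line is the floor (5.65) and the dashed line the detection level (7.39). Bladder points of Sall1, Isl1, Eya1, Six2 and Sp8 lie under all urethra and urogenital sinus points, while Dlx6 is under the detection level on all 13 arrays.

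Sall1 read 5.65, 5.65 and 9.09 on the 3 bladder arrays, 13.12, 12.80 and 12.24 on the urethra arrays, 10.72, 11.76, 11.12 and 12.18 on the urogenital sinus arrays, and 8.57, 10.87 and 10.08 on the newborn reference arrays. In bladder it was at the floor on replicates 2 and 6 and detected on replicate 8 alone, and the bladder arrays did not overlap those of either other region. Sall1 was lower in bladder by a log2 difference of -4.65 against urogenital sinus (SE 0.78, adjusted p = 0.0186) and of -5.92 against urethra (SE 0.83, adjusted p = 0.00756). Its mean levels ran urethra, urogenital sinus, newborn reference, bladder. The urethra and urogenital sinus arrays did not overlap, as for 4.9% of all genes with urethra higher, but their difference of 1.28 was not called (95% interval -0.46 to 3.02, adjusted p = 0.613). The other Sall1 probe set was detected on 2 arrays only, urethra replicates 2 and 6, at 8.01 and 7.57, and stood at the floor on all arrays of the other groups.

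Sp8 was at the floor on all 3 bladder arrays, with raw intensities of 11.3 to 42.5. It read 11.29, 9.19 and 11.15 in urethra, 8.91, 10.43, 9.36 and 11.21 in urogenital sinus, and 8.59, 6.01 and 9.37 in the newborn reference. It was thus detected on all 7 arrays of urethra and urogenital sinus and on none of bladder. Against the detection level, Sp8 was at least 6.01-fold lower in bladder than in urogenital sinus and at least 8.90-fold lower than in urethra. With the bladder arrays at the floor, limma gave adjusted p = 0.0121 and adjusted p = 0.00771. With the floor raised to the 40th percentile, Sp8 was called in neither comparison. Urethra and urogenital sinus differed by 0.57 (95% interval -0.88 to 2.01), which was not called. Replicates within those regions spread widely for Sp8, with an SD of 1.17 in urethra and 1.04 in urogenital sinus.

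Isl1, which is also made by motor, sensory and autonomic neurons, read 10.58, 10.53 and 12.67 in bladder, 15.67, 14.43 and 14.75 in urethra, 14.93, 14.90, 14.89 and 14.61 in urogenital sinus, and 9.03, 8.96 and 11.67 in the newborn reference. It was detected on every array. Bladder lay under urethra and urogenital sinus without overlap, and bladder replicate 8 was the highest of its group. The difference was -3.57 against urogenital sinus (SE 0.50, adjusted p = 0.0102) and -3.69 against urethra (SE 0.53, adjusted p = 0.00851). Urethra and urogenital sinus averaged 14.95 ± 0.64 (SD, n = 3) and 14.83 ± 0.15 (SD, n = 4), a difference of 0.12 with a 95% interval of -0.99 to 1.23.

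On the second Isl1 probe set bladder again lay under both other regions without overlap, while urethra and urogenital sinus changed places by mean. It read 9.51, 9.45 and 9.18 in bladder, 12.58, 14.01 and 13.27 in urethra, 13.67, 13.71, 13.57 and 13.23 in urogenital sinus, and 7.51, 8.55 and 10.21 in the newborn reference. On this probe set bladder replicate 8 was not above the other bladder arrays. Put in place of the first, it gave -4.17 against urogenital sinus (adjusted p = 0.00181) and -3.91 against urethra (adjusted p = 0.00153).

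Lhx8, known from cholinergic forebrain neurons, tooth mesenchyme and oocytes, read 5.65, 5.65 and 6.75 in bladder, 9.89, 11.41 and 11.58 in urethra, 5.65, 8.23, 7.81 and 10.54 in urogenital sinus, and 8.88, 9.27 and 6.19 in the newborn reference. No bladder array reached the detection level. All urethra arrays did, and the urogenital sinus arrays ranged from the floor on replicate 1 to 10.54 on replicate 7. Against the detection level, Lhx8 was at least 11.9-fold lower in bladder than in urethra, and the limma fit on floored values called it (adjusted p = 0.0296). That call was lost in 9 of 22 alternatives, among them quantile scaling, no filter and leaving out any single bladder or urethra array. The difference of -2.04 against urogenital sinus was not called (95% interval -4.19 to 0.11, adjusted p = 0.311).

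Eya1 read 9.19, 9.27 and 11.22 in bladder, 12.60, 12.60 and 12.88 in urethra, 11.91, 13.03, 13.19 and 13.72 in urogenital sinus, and 9.16, 10.14 and 9.84 in the newborn reference. Bladder replicate 8 again stood above replicates 2 and 6, and all bladder arrays lay under all urethra and urogenital sinus arrays. The difference was -3.07 against urogenital sinus (SE 0.54, adjusted p = 0.0213) and -2.80 against urethra (SE 0.57, adjusted p = 0.0289). Urethra minus urogenital sinus was -0.27 (95% interval -1.47 to 0.93). The bladder mean was 9.90 ± 1.15 (SD, n = 3) and that of the newborn reference, repeat arrays of 1 pool, was 9.72, a difference of 0.18 that was less than the spread among bladder arrays.

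The other 2 Eya1 probe sets were dimmer. One gave -3.02 in bladder minus urogenital sinus (adjusted p = 0.134) and -1.96 in bladder minus urethra (adjusted p = 0.252), and urethra replicate 1 was at the floor there. The other gave -2.83 (adjusted p = 0.0175) and -1.43 (adjusted p = 0.129). All 3 probe sets gave negative differences for bladder, and the call against urethra rested on the brightest one.

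Six2, which keeps kidney progenitors undifferentiated in the embryo, read 7.68, 5.65 and 8.41 in bladder, 10.92, 10.43 and 11.27 in urethra, 10.66, 9.79, 9.62 and 10.55 in urogenital sinus, and 8.72, 8.95 and 8.67 in the newborn reference. Bladder was the lowest group, below the newborn reference without overlap, and replicate 6 was at the floor. The difference was -2.91 against urogenital sinus (SE 0.61, adjusted p = 0.0399) and -3.63 against urethra (SE 0.65, adjusted p = 0.0183). The call against urogenital sinus was the least stable of the 5: it was lost in 14 of 22 alternatives, among them quantile scaling (adjusted p = 0.136), no filter (adjusted p = 0.0698) and most fits that left out 1 array, with the difference between -2.11 and -3.49 throughout. Urethra minus urogenital sinus was 0.72 (95% interval -0.63 to 2.07) and was not called.

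Dlx5 had another pattern. It read 5.65, 6.37 and 8.83 in bladder, 7.83, 8.32 and 7.01 in urethra, 8.27, 9.02, 10.19 and 10.36 in urogenital sinus, and 9.84, 10.40 and 10.52 in the newborn reference, where it was highest. Bladder and urethra overlapped, and differed by -0.77 (95% interval -2.64 to 1.10). Neither bladder minus urogenital sinus (-2.50, 95% interval -4.26 to -0.75, adjusted p = 0.138) nor urethra minus urogenital sinus (-1.74, 95% interval -3.49 to 0.02, adjusted p = 0.489) was called. Its neighbour Dlx6 was under the detection level on all 13 arrays, with intensities of 3.55 to 85.6, and has 1 probe set.

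**Figure D2:**
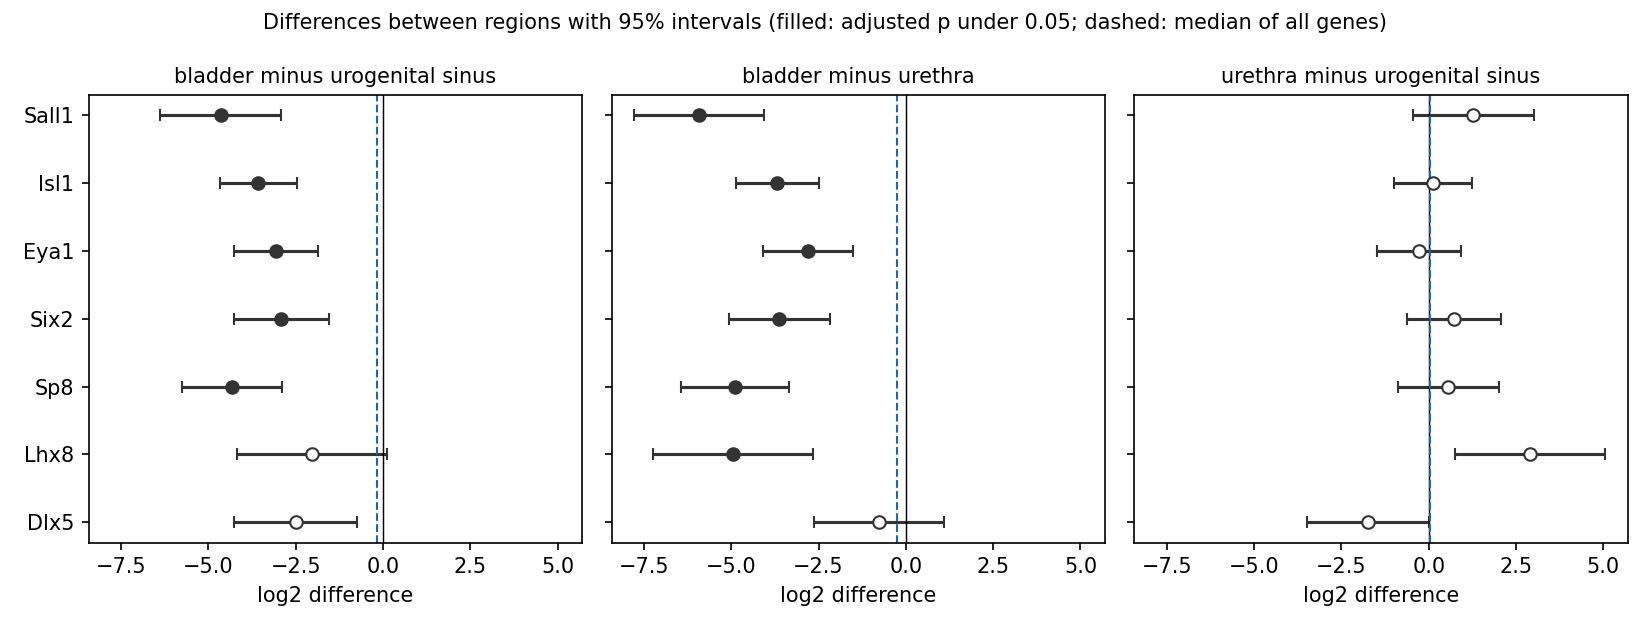
Log2 difference (x axis) of the 7 tested genes (y axis) in the comparisons between regions, with 95% intervals. Filled points have an adjusted p under 0.05 and the dashed line is the median of all genes. Bladder minus urogenital sinus holds 5 filled points, bladder minus urethra 6, and urethra minus urogenital sinus none.

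The order of mean levels differed by gene. Sp8 and Six2 ran like Sall1, from urethra through urogenital sinus and newborn reference to bladder. Isl1 ran urethra, urogenital sinus, bladder, newborn reference, and Eya1 ran urogenital sinus, urethra, bladder, newborn reference. Lhx8 ran urethra, newborn reference, urogenital sinus, bladder, and Dlx5 ran newborn reference, urogenital sinus, urethra, bladder. Of neighbours in these orders, only bladder and urogenital sinus for Isl1 and bladder and urethra for Eya1 differed at an adjusted p under 0.05 by limma.

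Between urethra and urogenital sinus none of the 7 genes was called by limma, as against 0.0133% of all genes, 2 in number. One gene, Lhx8, had an unadjusted p under 0.05, which 10.4% of all genes had. Lhx8 was higher in urethra by 2.90 (95% interval 0.76 to 5.05, adjusted p = 0.343 by limma), and urogenital sinus replicate 7 at 10.54 lay above urethra replicate 1 at 9.89. A missed threshold does not show that the regions were alike, and the intervals of Sall1, Six2, Sp8 and Dlx5 still included differences beyond 2 on the log2 scale.

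Leaving out single arrays changed the number of genes called. Of all 15019 genes, 46 to 647 were then called in bladder minus urogenital sinus, against 382 in the main fit. In bladder minus urethra 111 to 1292 were called, against 651. Both counts were lowest without bladder replicate 6, so few calls among the 7 genes went with few calls among all genes there. Without bladder replicate 2 or without bladder replicate 6, none of the 7 was called between bladder and urogenital sinus, with adjusted p from 0.0588 for Isl1 upward. Without bladder replicate 8, 6 were called, Dlx5 among them at -3.45 (adjusted p = 0.0479). Without urogenital sinus replicate 2 or without replicate 6, only Isl1 and Sp8 were called. Between bladder and urethra, Sall1, Isl1 and Sp8 remained called in each of the 10 fits that left out an array. Bladder replicate 8 had the lowest median intensity of all 13 arrays (142, against 221 to 455 on the arrays outside bladder and 227 and 238 on the other bladder arrays) and the highest ratio of 3′ to 5′ actin signal (4.04 on the log2 scale, against 1.21 to 3.42 elsewhere), a sign of shorter RNA. Its part in the higher readings there was not tested. Urethra replicate 1 had the next highest ratio, 3.42, against 1.34 on the other urethra arrays, and its part was not tested either.

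The titles of the arrays fall into 3 naming styles, which the labels do not call batches. Bladder and urogenital sinus share both of their styles, and urethra has one of its own with a newborn reference array. Within the first style (2 bladder and 3 urogenital sinus arrays) all 7 differences, bladder minus urogenital sinus, were negative, for example -4.35 for Isl1 and -3.48 for Eya1. Within the second (1 array each), all 7 were negative again, with -1.94 for Isl1 and -2.50 for Eya1. The sizes for the other 5 genes rest in at least 1 style on bladder arrays under the detection level and are not given. With the style as a block, resting for urethra on 1 newborn reference array, only Sall1 (-5.20, adjusted p = 0.0363) and Lhx8 (adjusted p = 0.0445) were called in bladder minus urethra. The Lhx8 size is not given, as no bladder array detected it. For Lhx8 the newborn reference array of the urethra style read 6.19, against 8.88 and 9.27 on the others. The part of that array in the Lhx8 call was not tested. Isl1 then came to -0.92 (adjusted p = 0.737), and the newborn reference array of the urethra style read 11.67 for Isl1, against 9.03 and 8.96 on the others.

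**Figure D3:**
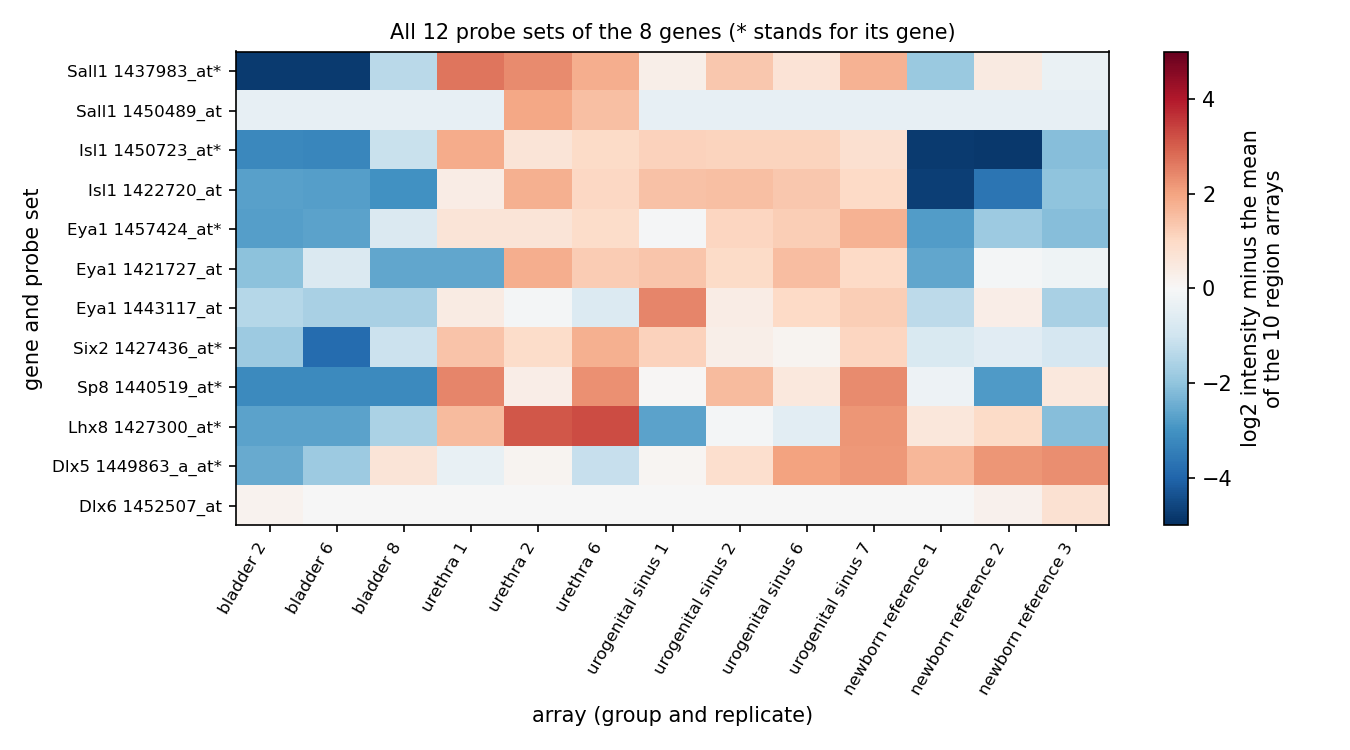
Log2 intensity minus the mean of the 10 region arrays (colour) for all 12 probe sets of the 8 genes (y axis) on the 13 arrays (x axis). An asterisk marks the probe set that stood for its gene. The bladder columns are blue for both Isl1 and all 3 Eya1 probe sets.

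Set against the newborn whole-mouse reference, whose 3 arrays were averaged to 1 sample, none of the 7 genes was called in bladder, as against 17% of all genes. Sall1 (-3.04, adjusted p = 0.109), Sp8 (-2.34, adjusted p = 0.133) and Dlx5 (-3.30, adjusted p = 0.0870) had unadjusted p under 0.05 by limma, which 31.3% of all genes had. Bladder arrays of Six2, Sp8 and Dlx5 lay under all newborn reference arrays, as did those of 31.3% of all genes too.

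Isl1 and Eya1 were the genes called against the newborn reference in the other regions, where 13.2% of all genes were called in urethra (4.36% as higher) and 13.8% in urogenital sinus (4.62% as higher). Isl1 was 5.07 higher in urethra (adjusted p = 0.00160) and 4.95 higher in urogenital sinus (adjusted p = 0.00138). Eya1 was 2.98 higher in urethra (adjusted p = 0.0382) and 3.25 higher in urogenital sinus (adjusted p = 0.0223). Dlx5 pointed the other way, at -2.53 in urethra and -0.80 in urogenital sinus, with neither called. Arrays of 3 genes in urogenital sinus (Isl1, Eya1 and Six2, against 13.2% of all genes) and of 5 in urethra (these, Sall1 and Lhx8, against 19.3%) lay above all newborn reference arrays. Dlx5 in urethra lay below them, as did 21.6% of all genes. The 3 comparisons share the reference arrays. Treating these arrays as 3 samples called all 7 genes in urethra, Dlx5 as lower. That setting counts repeat arrays of 1 pool as separate samples. It raised the calls among all genes as well, as given in the last section. The whole newborn mouse holds further tissues. The mean level of 9 skeletal muscle genes was 6.63 to 10.68 in the regions, against 13.33 to 13.85 in the newborn reference, and that of 7 epidermal genes was 7.69 to 8.53 in the regions, against 13.19 to 13.41 in the newborn reference. Their part in the differences was not tested.

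No gene was called between Theiler stages 22 and 21 with region in the model, 0 of 7 here and 0 of all 15019 (0%), although 3830 genes (25.5%) had an unadjusted limma p under 0.05. None of the 7 was among those. Array weights gave 1421 calls and a floor at an intensity of 1 gave 359. A test for a stage effect that differed between regions called 0 genes.

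Other regulators of the genital tubercle were described from a list of 22 genes, of which 18 were tested. None was called as higher in bladder. Against urogenital sinus, 5 were lower, with a list median of -0.93 against -0.19 for all genes. They were Ror2, a receptor for Wnt5a (-2.14, adjusted p = 0.0114), Wnt5a itself (-2.39, adjusted p = 0.0114), the signal Bmp7 (-1.80, adjusted p = 0.0357), the homeodomain factor Msx1 (-1.55, adjusted p = 0.0412) and the ephrin Efnb2 (-1.25, adjusted p = 0.0430). Against urethra, 6 were lower, with a list median of -1.07 against -0.25 for all genes. Ror2 (-2.37, adjusted p = 0.00756), Hoxd13 (-1.53, adjusted p = 0.0100), Bmp7 (-2.49, adjusted p = 0.0107) and Shh (-1.63, adjusted p = 0.0202) had the smallest p, and Dact1 and Wnt5a were the others. With each array centred on its median the list medians were -0.35 and -0.60, no gene was called against urogenital sinus, and only Ror2 was called against urethra. Under quantile scaling the list medians were -0.71 and -0.81. It called 5 genes as lower against urogenital sinus (Efnb2, Hoxd13, Ror2, Shh and Wnt5a) and 6 against urethra.

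Hoxd13, a homeobox factor of the posterior end of the body, had intensities of 13351 to 13952 in bladder, 31812 to 56151 in urethra, 23277 to 28946 in urogenital sinus and 256 to 567 in the newborn reference. It was thus well detected in all regions, bladder included, where Sp8 and Lhx8 were not. Shh, the Hedgehog ligand of the urethral epithelium, likewise had intensities of 15275 to 19357 in bladder, 40733 to 79336 in urethra and 25071 to 43922 in urogenital sinus. Fgf8, Nog and Hoxd12 did not pass the filter, with Fgf8 at 18.1 or less on all arrays. Between urethra and urogenital sinus no gene of the list was called.

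A further list held 23 paralogues and binding partners, of which 21 were tested. In bladder, 4 were lower than in urogenital sinus, with a list median of -1.03. These were the homeodomain factors Dlx2 (-2.35, adjusted p = 0.0111) and Six4 (-2.47, adjusted p = 0.0177), Dach1, a cofactor of Eya and Six2-type proteins, (-1.78, adjusted p = 0.0187) and the Sall1 paralogue Sall4 (-3.67, adjusted p = 0.0217). Against urethra, 5 were lower, with a list median of -1.20: Six4 (-2.51, adjusted p = 0.0170), Dach1 (-1.62, adjusted p = 0.0265), the LIM-domain protein Lmo4 (-2.03, adjusted p = 0.0291), Eya2 (-1.92, adjusted p = 0.0308) and the Isl1 paralogue Isl2 (-1.73, adjusted p = 0.0474). Six4 and Dach1 were thus called in both comparisons, like Sall1, Isl1, Eya1, Six2 and Sp8. After centring, 1 gene was called against urogenital sinus (Sall4) and 0 against urethra, and the list medians were -0.44 and -0.73. Under quantile scaling 3 were called as lower in each comparison, with list medians of -0.70 and -0.92.

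**Figure D4:**
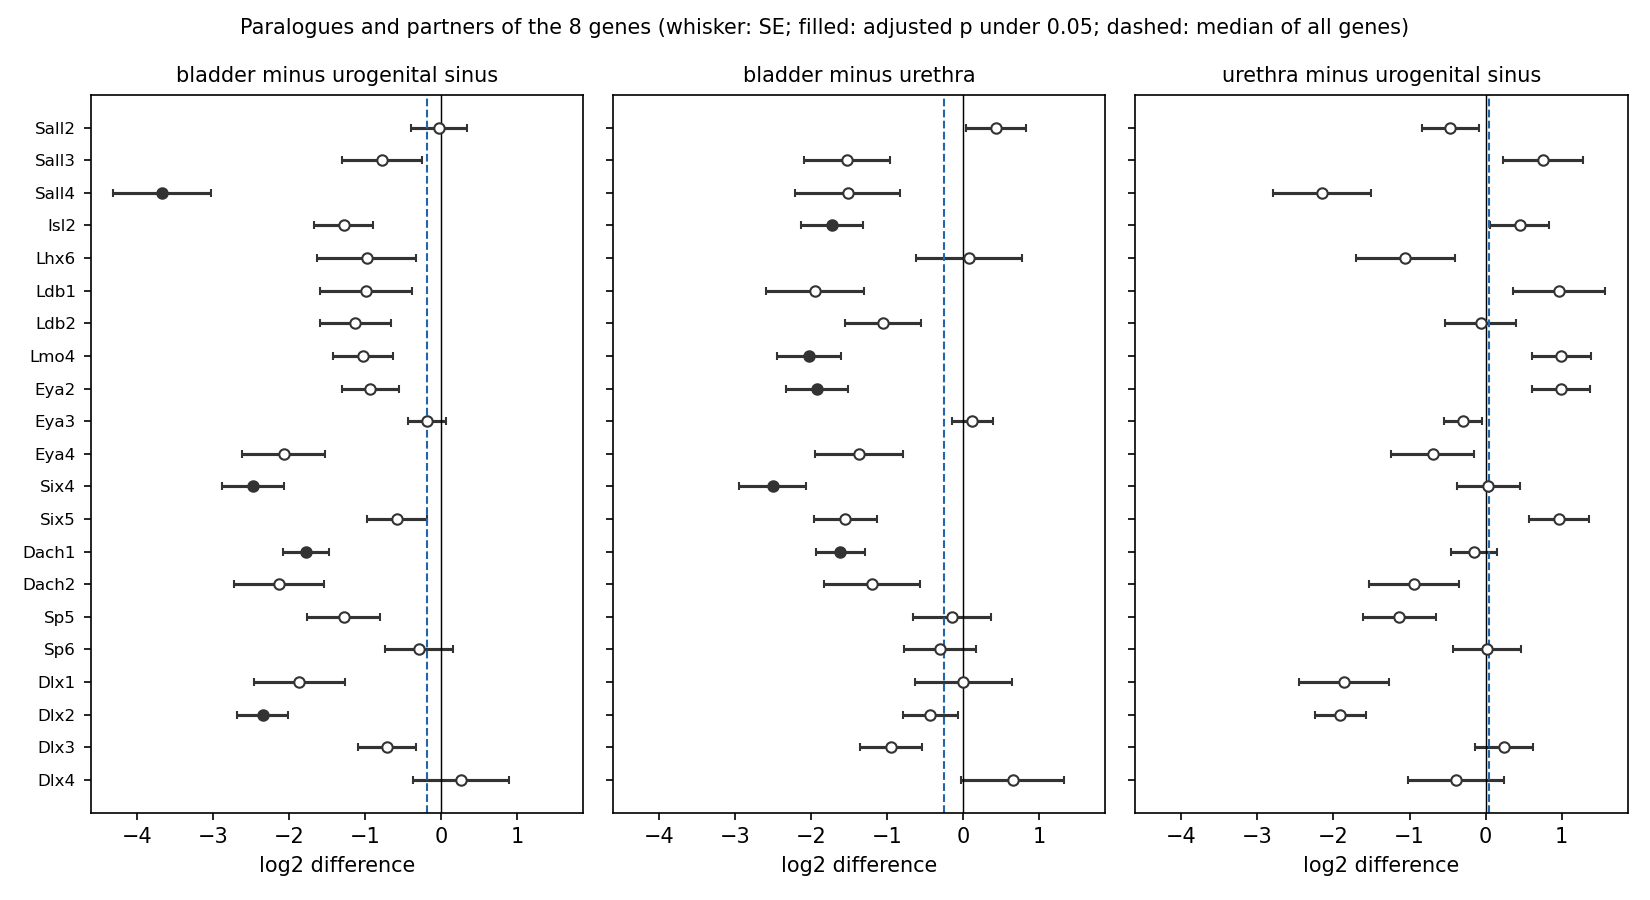
Log2 difference (x axis) of 21 paralogues and partners of the 8 genes (y axis) between regions, with the SE as a whisker. Filled points have an adjusted p under 0.05 and the dashed line is the median of all genes. Filled points lie left of 0 in both bladder panels (4 against urogenital sinus, 5 against urethra), and the urethra minus urogenital sinus panel has none.

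Dlx1, Dlx2 and Sall4 had their highest regional mean in urogenital sinus, as Dlx5 did. Dlx2 had intensities of 21.8 to 133 in bladder, 103 to 119 in urethra and 336 to 470 in urogenital sinus, so that of the regions only urogenital sinus was above the detection level. Dlx1 was under the detection level on all bladder and urethra arrays and above it on 3 of the 4 urogenital sinus arrays. Urethra minus urogenital sinus was -1.91 for Dlx2 (adjusted p = 0.102), -1.86 for Dlx1 (adjusted p = 0.319) and -2.15 for Sall4 (adjusted p = 0.292), none of them called. Dlx1 and Sall4 were picked here after their values were seen.

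Several marker lists moved with the regions. Of 13 epithelial genes of sinus and urethra, 2 were called as lower in bladder than in urogenital sinus and 4 than in urethra, and the mean list level was 10.37 to 11.04 in bladder, 11.81 to 12.73 in urethra and 11.20 to 12.07 in urogenital sinus. Foxa2, an endodermal transcription factor, was under the detection level in bladder, with intensities of 19.0 to 92.4, against 1235 to 1980 in urethra and 636 to 1522 in urogenital sinus. Krt5, a basal keratin, had intensities of 213 to 319 in bladder, 3799 to 14922 in urethra and 2090 to 3747 in urogenital sinus. Krt15 (-4.43, adjusted p = 0.00337) and Krt14 (-2.28, adjusted p = 0.0388) were the other keratins of this list called as lower in bladder than in urethra. Krt14 was not called by limma under quantile scaling (adjusted p = 0.0856) or after centring (adjusted p = 0.0824). The uroplakins of the list, which line the urothelial surface, had positive differences for bladder that were not called. Upk1b, for one, had intensities of 6661 to 9859 in bladder, 1875 to 6588 in urethra and 1562 to 6651 in urogenital sinus. The part of epithelial content in the differences of the 8 genes was not tested.

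Kidney markers bear on Sall1, Six2 and Eya1, which nephron progenitors express. The mean level of 7 tested nephron progenitor and nephric duct genes was 7.36 to 8.34 in bladder, 8.48 to 9.15 in urethra and 8.85 to 9.94 in urogenital sinus. None of the 7 was called against urogenital sinus, and Gdnf, a growth factor of the kidney mesenchyme, was the 1 called against urethra (-4.91, adjusted p = 0.0273). Under quantile scaling Gdnf was not called by limma (adjusted p = 0.0504). It had intensities of 26.3 to 73.2 in bladder, 1447 to 1964 in urethra and 9.03 to 1419 in urogenital sinus. Cited1, a marker of nephron progenitors named here after its values were seen, was under the detection level on all 13 arrays, at 109 or less. Wt1, another kidney and gonad gene, had intensities of 289 to 1392 in bladder, 80.4 to 321 in urethra and 1217 to 2333 in urogenital sinus. Gdnf was thus highest in urethra and Wt1 lowest there. The part of kidney tissue in the differences of Sall1, Six2 and Eya1 was not tested.

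Neuronal genes bear on Isl1. Of 12 neuronal genes 10 were tested, and all 10 were below 0 in bladder minus urogenital sinus, with a median of -2.80, and 1 was called, Elavl3. The mean neuronal level was 7.47 to 8.78 in bladder. It was 7.50 on urethra replicate 1 and 9.75 and 9.77 on the others, and 7.63 on urogenital sinus replicate 1 and 10.71 to 12.43 on the others. Isl1 read 15.67 on urethra replicate 1 and 14.93 on urogenital sinus replicate 1 on the brightest probe set, the highest of its group in both cases. On the second probe set it read 12.58 on urethra replicate 1, the lowest of the urethra arrays, and 13.67 on urogenital sinus replicate 1. That urethra array had a 3′ to 5′ actin ratio of 3.42 on the log2 scale. The part of neuronal content or of shorter RNA in the Isl1 differences was not tested. Urethra replicate 1 and urogenital sinus replicate 1 had the highest red blood cell levels (11.38 and 11.54, against 8.83 to 10.62 on the other region arrays). Without both arrays, Isl1 was -3.54 in bladder minus urogenital sinus (adjusted p = 0.0145) and -3.33 in bladder minus urethra (adjusted p = 0.0325), and Sall1, Eya1 and Sp8 were also called in both. Six2 was then called in neither (-2.74, adjusted p = 0.0787, and -3.61, adjusted p = 0.0552).

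**Figure D5:**
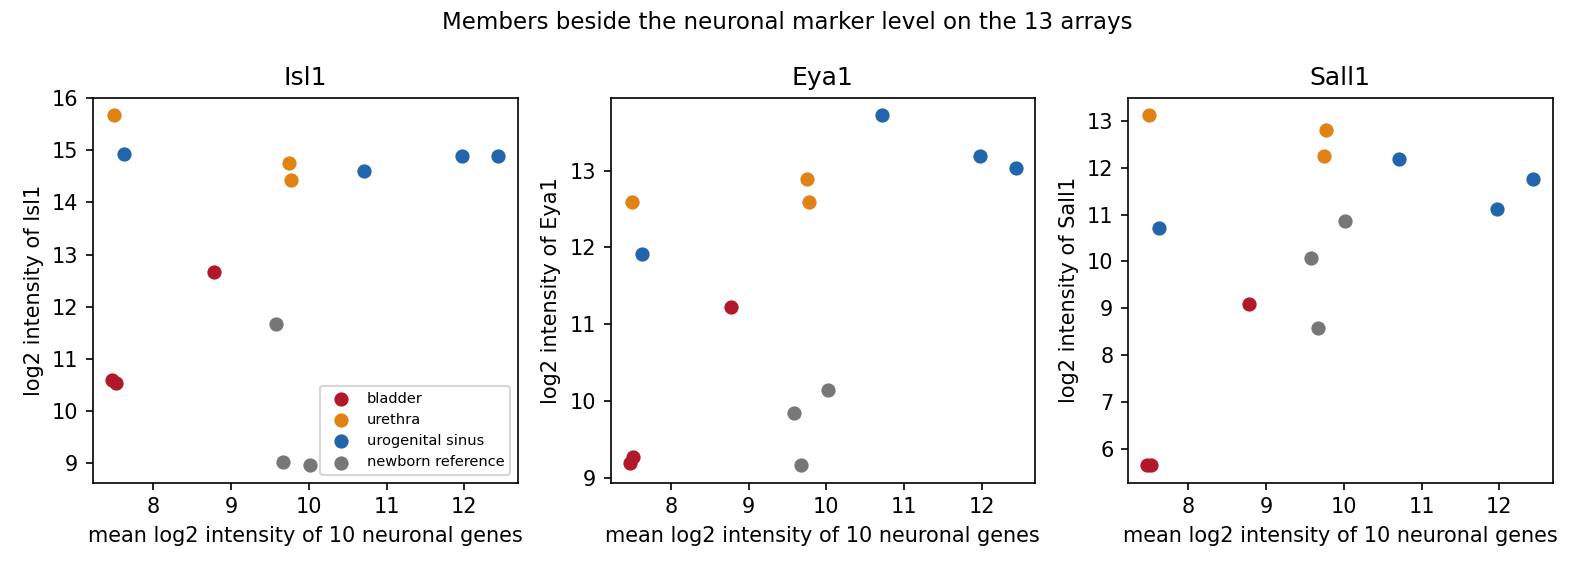
Log2 intensity of Isl1, Eya1 and Sall1 (y axes) against the mean log2 intensity of 10 neuronal genes (x axis), 1 point per array, coloured by group. Isl1 stands at 15.67 on the urethra array and 14.93 on the urogenital sinus array with the lowest neuronal levels of their groups (7.50 and 7.63), as read by its brightest probe set.

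Actg2, the smooth muscle gene of the reporter, had intensities of 11642 to 16037 in bladder, 7597 to 12883 in urethra and 253 to 1746 in urogenital sinus. Both fluorescent regions thus had high Actg2, while Sall1, Isl1, Eya1, Six2, Sp8 and Lhx8 were low in bladder and high in urethra. Of 10 smooth muscle genes, 5 were called as higher in bladder than in urogenital sinus (Actg2, Tagln, Myh11, Acta2 and Cnn1). Between bladder and urethra or between urethra and urogenital sinus, 0 were called. The list median in urethra minus urogenital sinus was still 1.81, with 1 of the 10 genes below 0. Centring called Actg2 and Cnn1 as higher in urethra there. Des, an intermediate filament gene of muscle, went the other way in bladder, at 27.1 to 147, against 178 to 541 in urethra and 228 to 887 in urogenital sinus, and was not called. Further lists gave few calls. Schwann cell, skeletal muscle and red blood cell genes gave none in either comparison. Among 7 epidermal genes Ivl was higher and Lor lower in bladder than in urogenital sinus, and Krt6a and Lor were lower than in urethra. Neither quantile scaling nor centring called Krt6a or Lor against urethra. After centring, Lor was not called against urogenital sinus either. Endothelial, leukocyte, and cartilage and bone genes gave no call against urogenital sinus. Against urethra the endothelial gene Kdr and the macrophage gene Mrc1 were higher in bladder, and the cartilage gene Col2a1 was lower. Kdr and Mrc1 did not stand for their lists. The list medians were 0.08 for endothelium (2 of 6 genes below 0) and -0.29 for leukocytes (3 of 5 below 0). That of cartilage and bone was -0.55 (5 of 6 below 0).

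The 7 tested genes varied more over the region arrays than most genes. Their SD over the 10 arrays was 1.53 for Dlx5 to 2.77 for Sall1, against a median of 0.62 for all genes. The genes were chosen with earlier results of these data known, so this is a description. After each gene was centred on its mean, the root mean square difference over the 10 region arrays measured how alike 2 genes ran, with small values for like patterns. Among the members it was smallest between Isl1 and Eya1 (0.67) and between Isl1 and Six2 (0.70), and largest between Lhx8 and Dlx5 (2.29). As these points share arrays and regions, the measure is a description.

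Among 2100 other genes with an SD of at least 1, the pattern nearest to that of Sall1 was Pdlim4 (0.78) and then Scn3a (0.84). St8sia2 (0.47) and Lix1 (0.49) were nearest to Isl1, and Cadm1 (0.37) and Kcnd2 (0.45) to Eya1. For Six2 these were St8sia2 (0.51) and Wnt10a (0.67), and for Sp8 they were Sox2 (0.43) and Pkp1 (0.61). Irs4 (0.69) and Gdnf (0.73) came nearest to Lhx8, and Calb1 (0.47) and Miat (0.50) to Dlx5. The median over the candidates was 1.65 to 2.51 for the 7 genes. St8sia2 appeared for both Isl1 and Six2. Gdnf shared with Lhx8 levels under the detection level on all bladder arrays and on urogenital sinus replicate 1.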

How the data were processed

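Microarray data of 13 arrays were used. The authors deposited 1 intensity per probe set and array on a linear scale. The submitters' processing notes name GCOS. What was done from scan to table, and any genome build, is not given in the sources used here. Each array's mean, after leaving out the highest and lowest 2% of values, was 1500, so the arrays had been scaled to a common mean. The labels' protocols give 2 rounds of RNA amplification, which favours 3′ ends. Depth cannot be given for arrays, and the number of arrays limits precision.

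Intensities were floored, put on the log2 scale and fitted by lmFit of limma 3.58.1 under R 4.3.3, then moderated by eBayes with its trend option (7 residual degrees of freedom), with p-values adjusted by the Benjamini-Hochberg method over 15019 genes. Probe sets needed 3 arrays above the detection level, 64 control probe sets were left out, and 34945 probe sets carried 1 symbol in the platform annotation. A bound ("at least N-fold") sets the brighter group's mean against the detection level where no array of the dimmer group reached it. The fit was tested on simulated data. The 8 genes and all 13 gene lists were chosen with earlier results of these data known. Named were all 8 genes, from each list up to 4 called genes per comparison with the smallest adjusted p (or the gene with the smallest p where none was called), and for each of the 8 genes the 2 nearest patterns. Of marker lists with no call, and of all lists against the newborn reference, most names the rule allows are not printed. Efnb2, Isl2, Cnn1, Dact1, Dlx1, Des, Upk1b, Cited1 and the genes below the filter were named beyond this rule, after their values were seen. Alternatives covered scaling, floor, filter, probe set choice, array weights, blocks and leaving out arrays.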

Additional observations from a re-analysis of the deposited data

Results flagged for a closer look

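Isl1 on urogenital sinus replicate 7 stood apart from the other arrays of its group. It read 14.61, against 14.89 to 14.93 on the other 3, and the gap was 0.887 of the group's range. The whole spread was small (SD 0.15), and the array stayed above every bladder array. Of 12 groups of 4 arrays put through this check 1 was picked out, and chance alone picks out about 1 in 20. The groups of Dlx6 and of the second Sall1 probe set were wholly at the floor and could not be picked out.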

How the results depend on the processing

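Directions held for every called difference of the 7 genes under all alternatives run, except that the second Sall1 probe set read 0 against urogenital sinus, being at the floor. Reversals touched uncalled differences. Isl1, urethra minus urogenital sinus: -0.061 (quantile), -0.07 (mean of probe sets), -0.030 (array weights), -2.70 (title style block), -0.26 (second probe set), -0.24 to 0.38 (leaving out 1 array) and -0.21 without urethra 1 and urogenital sinus 1, an alternative chosen after seeing the data. Sp8 there: -1.50 (style block) and -0.17 (without that pair). Dlx5, bladder minus urethra: 0.025 (floor at the 40th percentile). Eya1, bladder minus newborn reference: -0.45 (mean of probe sets), -0.15 (array weights), -0.84 and -0.69 (other probe sets), -0.48 to 0.53 (leaving out 1 array). Lhx8, urogenital sinus minus newborn reference: 0.22 (quantile), 0.20 (centred), -1.02 to 0.74 (leaving out 1 array) and 0.74 (without that pair).

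Genes called in bladder minus urogenital sinus were 382, with 199 under quantile scaling (96 higher, 103 lower), 235 with no filter, 2668 with array weights, 766 without that pair and 46 to 647 leaving out 1 array; members called were 5, with 3 after centring and 0 to 6. In urethra minus urogenital sinus 2 genes were called, with 1 (quantile, no trend, stage covariate), 7 (centred, higher floor), 11 (floor of 1), 4 (no filter), 664 (weights), 14 (style block), 0 (without that pair) and 0 to 22; members 0, with 1 by weights and 0 to 0. In bladder minus urethra 651 were called, with 410 (quantile, 226 higher, 184 lower), 328 (centred, 238 higher, 90 lower), 1873 (weights), 55 (style block) and 111 to 1292; members 6, with 2 (style block) and 3 to 6. Against the newborn reference, weights, style block and 3 reference samples called 5791, 4249 and 5390 genes in bladder (main 2557, 1776 to 3411), 5270, 3357 and 4327 in urogenital sinus (2076, 1641 to 2731) and 3867, 2997 and 4196 in urethra (1987, 1575 to 2523). Members there were 3, 4 and 3 in bladder, 1 with a floor of 1 and 0 to 2 leaving out 1 array; 4 by style block in urogenital sinus and 2 to 2; and in urethra 4, 5 and 7, 1 centred or by mean of probe sets, 4 with the higher floor and 1 to 3. Stage calls were 359 (floor of 1), 1421 (weights) and 0 to 3, members 0 to 0. The cause of these changes was not tested.

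With the replicate number as a block, 138, 0 and 136 genes and 3, 0 and 4 members were called in bladder minus urogenital sinus, urethra minus urogenital sinus and bladder minus urethra. Deviations of 7 same-number pairs correlated at -0.17 to 0.36, 5 over 0.1, against -0.51 to 0.41 in 26 other pairs. Of 8 arrays, 1 correlated best with its own number. With so few pairs and overlapping ranges, this cannot tell whether the numbers pair the arrays. Signal limits Sp8, Lhx8, Dlx6 and 2 bladder arrays of Sall1 to bounds. It also limits Six2 on bladder replicate 6, and Dlx5 on bladder replicates 2 and 6 and urethra replicate 6. Log2 differences that use such values, those against the newborn reference included, depend on the floor.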
